A study of Mus musculus with 14 samples.

Results

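Mitosis and chromosome segregation genes were followed in 2 populations of bone marrow lymphocytes, from mice designed to lose Il15 in the blood lineages and from their controls. The group holds 48 genes, taken by mouse symbol from a table of raw counts for 46078 Ensembl gene identifiers. Each of the 48 symbols matched 1 row, and all 48 passed the filter on low counts that left 26990 genes. The symbols were listed by function and not by a threshold on these data, but with earlier results of these data known. The labels describe C57BL/6 mice of 8 weeks, and 2000 cells were sorted from the marrow for each library. Immature natural killer cells (iNK) were sorted as NK1.1+, DX5+ and CD27+ cells lacking CD3, IL-7Ra and CD11b, and immature type 1 innate lymphoid cells (iILC1) as NK1.1+, CD49a+ and IL-7Ra+ cells lacking CD3. The 4 groups were cKO iNK (n = 4), control iNK (n = 3), cKO iILC1 (n = 4) and control iILC1 (n = 3). All mice carried 1 floxed and 1 knockout allele of Il15 (Il-15-flox/KO), so the controls were not wild type. The cKO mice also carried Vav-Cre, a transgene that is on in blood stem cells and what they give rise to, so IL-15 from cells outside the blood lineages was not targeted. Whether each library is a mouse of its own is not given in the labels, and p-values therefore rest on the spread between libraries, which may be technical.

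Dividing cells build these transcripts up late in the cell cycle and destroy many of the proteins as they leave mitosis. Cyclins with the kinase CDK1 start mitosis, condensins compact the chromosomes, kinetochores join them to the spindle, and the checkpoint holds back the anaphase-promoting complex until every chromosome is attached. Central spindle proteins then split the cell. Many of the genes are held off in resting cells through a promoter element called the cell cycle homology region, to which the DREAM complex binds, and are switched on late in the cycle by a complex with MYBL2 and FOXM1. NK cells and ILC1s proliferate during their development and in response to IL-15.

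The total count ranged over 6254844 to 12572326 in cKO iNK, 6238016 to 8013984 in control iNK, 5478641 to 10308693 in cKO iILC1 and 3512796 to 4933284 in control iILC1. Levels are CPM (a gene's count per 1000000 counts of the TMM-scaled library size), and levels of different genes are compared only per kilobase of exon. Il15 itself was low, at 8.58 to 12.3 CPM in cKO iNK and 8.16 to 11.1 CPM in control iNK, and 11.2 to 25 CPM in cKO iILC1 and 11.7 to 13.7 CPM in control iILC1, and a count over the whole gene does not check the deletion. The sort labels were checked on the genes of the gate. Il7r lay at 523 to 718 CPM in cKO iILC1 and 351 to 472 CPM in control iILC1, against 15.6 to 27 CPM in cKO iNK and 6.71 to 11.4 CPM in control iNK, and Klrb1c, which encodes NK1.1, lay between 1170 and 2350 CPM in every library. Cd3e was present at 22 to 34.2 CPM in cKO iILC1 and 40.5 to 79.3 CPM in control iILC1, although the gate excluded CD3, and Itgam (CD11b) at 53.7 to 70.4 CPM in cKO iNK and 83.6 to 165 CPM in control iNK. Odour and pheromone receptor genes, which are not known to act in lymphocytes, served as a measure of background reads. They summed to 2004 to 3051 CPM in cKO iNK, 1621 to 2912 CPM in control iNK, 1881 to 3437 CPM in cKO iILC1 and 2518 to 3539 CPM in control iILC1. The lowest of these sums within each cell type belonged to control iNK replicate 1 (1621 CPM) and cKO iILC1 replicate 1 (1881 CPM), which also lay lowest on the first principal component of all genes.

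Promoters of the genes are shown first because many genes of this kind are known to share a control element there. RefSeq promoters on GRCm38.p6 were found for 40 of the 48 genes (42 promoters), and the other 8 genes are Foxm1, Smc4, Stmn1, Aurkb, Lmnb1, Ccna2, Kif20a and Tpx2. The cell cycle homology element was searched on both strands as TTTGAA or TTCGAA, and the box bound by the factor NF-Y as CCAAT. In the 250 bases before the start, 18 of 42 promoters (42.9%) held a homology element, against 17.1% of all 32851 promoters, and 16 of 42 (38.1%) held both kinds, against 6.02%. Each of the 6 below belongs to the genes with the highest levels per kilobase among those with an element. Bases inside an annotated GENCODE exon were left out, and capitals mark both kinds of element, on either strand.
Ccnb2 (chr9:70421555-70421804, minus strand): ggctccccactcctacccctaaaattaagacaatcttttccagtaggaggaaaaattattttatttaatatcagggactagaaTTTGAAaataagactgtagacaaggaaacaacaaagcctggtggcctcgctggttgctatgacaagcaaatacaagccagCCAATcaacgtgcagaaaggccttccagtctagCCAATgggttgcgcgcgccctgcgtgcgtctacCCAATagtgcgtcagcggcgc
Cdc20 (chr4:118437353-118437593, minus strand): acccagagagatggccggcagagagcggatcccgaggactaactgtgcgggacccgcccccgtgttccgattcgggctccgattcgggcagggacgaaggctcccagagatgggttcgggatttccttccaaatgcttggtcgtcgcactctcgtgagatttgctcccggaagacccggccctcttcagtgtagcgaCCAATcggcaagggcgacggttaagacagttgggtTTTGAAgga
Kif22 (chr7:127042472-127042670, minus strand): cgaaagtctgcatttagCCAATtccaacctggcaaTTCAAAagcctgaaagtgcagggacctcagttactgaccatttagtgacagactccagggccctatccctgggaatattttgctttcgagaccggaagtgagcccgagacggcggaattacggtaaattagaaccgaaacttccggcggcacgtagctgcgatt
Ncapd2 (chr6:125191702-125191800, minus strand): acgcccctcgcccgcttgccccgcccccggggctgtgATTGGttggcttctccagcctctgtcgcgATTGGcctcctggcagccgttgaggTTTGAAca
Top2a (chr11:99024190-99024439, minus strand): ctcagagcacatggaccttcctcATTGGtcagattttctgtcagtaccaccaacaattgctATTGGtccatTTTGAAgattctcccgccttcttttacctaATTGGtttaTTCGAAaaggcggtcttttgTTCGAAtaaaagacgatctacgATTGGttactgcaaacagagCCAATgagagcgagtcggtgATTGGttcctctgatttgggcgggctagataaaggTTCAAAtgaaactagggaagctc
Bub1b (chr2:118597961-118598210, plus strand): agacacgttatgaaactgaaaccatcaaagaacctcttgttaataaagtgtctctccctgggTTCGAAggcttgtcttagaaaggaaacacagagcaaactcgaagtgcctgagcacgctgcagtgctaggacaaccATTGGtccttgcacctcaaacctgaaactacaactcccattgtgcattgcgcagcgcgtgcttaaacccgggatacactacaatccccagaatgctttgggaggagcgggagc
Cdc20 carried its element 18 bases before the RefSeq start, with CCAAT at 53 bases. Ccnb2 had 3 CCAAT boxes at 87, 54 and 21 bases before the start, and a TTTGAA farther out at 167 bases. Top2a held the most elements of the 6, with 4 homology elements between 179 and 23 bases and 6 CCAAT boxes between 227 and 58 bases before the start. In the stretches shown for the other 3 genes, an element lay 215 bases before the start in Kif22, 123 in Ncapd2 and 188 in Bub1b. The bases left out also held a Kif22 element 17 bases before the start, a Cdc20 CCAAT box at 8 bases and an Ncapd2 CCAAT box at 48 bases. A Kif22 CCAAT box at 54 bases ran into the bases left out and is not marked. These are matches of letters and not mapped binding sites.

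Homology elements were placed most often just after the start. In the first 25 bases after it, 31% of the 42 promoters held one, against 1.43% of all promoters, and with the whole 300-base window counted the shares were 78.6% and 19.2%. CCAAT was found before the start in 71.4% of the promoters, against 33.8% of all, with the largest share (31%) from 75 to 50 bases before it. E2F sites, searched as TTTCCCGC, TTTGGCGC or TTTCGCGC, were found in 7.14% of them and 1.53% of all promoters. A list of 54 genes of DNA replication and the entry into S phase, whose RefSeq set also holds 54 promoters (of 44 genes), had the homology element in 16.7%, CCAAT in 55.6% and an E2F site in 22.2%. The 17 genes with an element before the start and the 23 without one had the same median log2 fold change of −0.61 between cKO and control iNK, and in iILC1 the medians were −0.34 and −0.20. Over the whole window, the 31 genes with an element had a median of −0.60 in iNK and −0.34 in iILC1, and the 9 without one −0.80 and −0.18. For iILC1 over iNK, the whole-window medians with and without the element were −1.08 and −0.96 in cKO mice, and −1.41 and −1.75 in control mice.

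**Figure D1:**
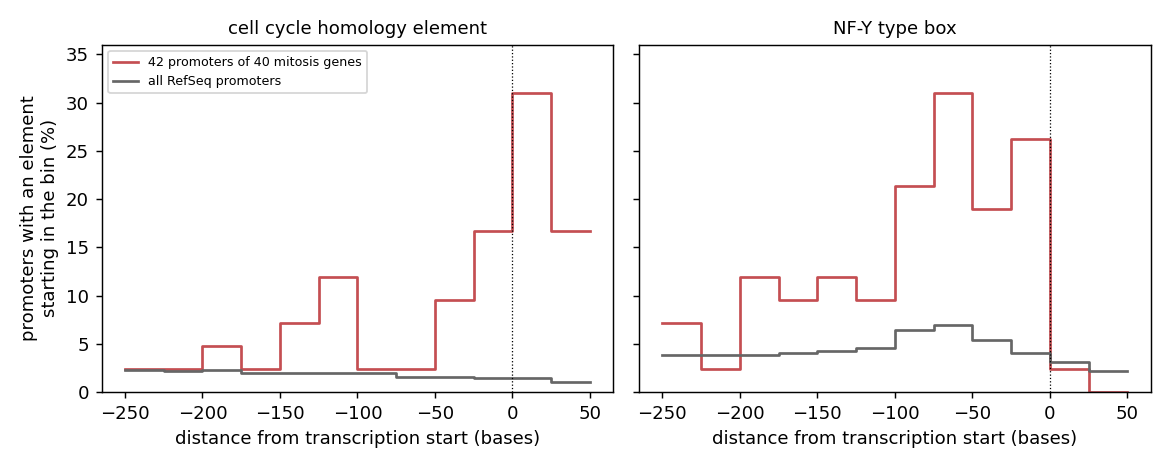
Share of promoters (percent) in which an element starts, in bins of 25 bases from 250 before to 50 after the transcription start, for 42 promoters of 40 mitosis genes (red) and all 32851 RefSeq promoters (grey). The cell cycle homology element (left) peaks at 31% in the first bin after the start, and the NF-Y type box (right) at 31% from 75 to 50 bases before it.

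Summed over the 48 genes, the libraries held 2592, 2391, 2485 and 2648 CPM in cKO iNK, 3530, 3955 and 5051 CPM in control iNK, 1011, 1259, 1016 and 1445 CPM in cKO iILC1, and 1070, 1463 and 1663 CPM in control iILC1. The cKO iNK libraries lay below all control iNK libraries and above all iILC1 libraries, whereas the sums of cKO and control iILC1 overlapped. The means were 2529 ± 114 (SD, n = 4), 4179 ± 785 (SD, n = 3), 1183 ± 210 (SD, n = 4) and 1399 ± 302 CPM (SD, n = 3) for cKO iNK, control iNK, cKO iILC1 and control iILC1. In these bulk libraries, fewer dividing cells and less RNA per dividing cell cannot be told apart. For 43 of the 48 genes the mean of cKO iILC1 was the smallest, followed by control iILC1, cKO iNK and control iNK, and in the other 5 the iILC1 groups changed places. For 33 genes the 3 control iNK libraries lay above all 11 other libraries, a count that was not made over all genes tested. Over all genes tested, the control iNK libraries lay above the cKO iNK libraries alone in 4.75%.

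The genes also moved together from library to library within control iNK and within both iILC1 groups, but less so within cKO iNK. Control iNK replicate 3 had the highest value of its group for 43 of the 48 genes, and control iNK replicate 1 the lowest for 35. In cKO iILC1, replicate 4 was highest for 32 genes and replicate 1 lowest for 32. In control iILC1, replicate 3 was highest for 31 and replicate 1 lowest for 40. In cKO iNK no replicate stood out as much. Replicates 1 to 4 were highest for 17, 9, 3 and 19 genes, and lowest for 12, 16, 11 and 9. Background reads moved with the summed level in some groups. In control iNK the receptor sums were 1621, 1857 and 2912 CPM beside member sums of 3530, 3955 and 5051 CPM, and in control iILC1 they were 2518, 3539 and 3388 CPM beside 1070, 1463 and 1663 CPM. In cKO iNK the replicate with the most receptor reads (3051 CPM) had the smallest member sum (2391 CPM). With the receptor sum added to the fit as a covariate, the median log2 fold change of cKO over control stayed below 0 in both cell types (−0.81 in iNK and −0.19 in iILC1).

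Per kilobase of exon, the median gene stood at 9.64 CPM in cKO iNK, 15.5 CPM in control iNK, 4.07 CPM in cKO iILC1 and 5.62 CPM in control iILC1. The 95th percentile of 1653 receptor genes was 4.6, 3.66, 4.96 and 4.9 CPM per kilobase in the same groups. The number of genes above it was 45 in cKO iNK, 48 in control iNK, 19 in cKO iILC1 and 28 in control iILC1, and none lay at or below the receptor median in any group. The remaining genes lay within the range of the receptor genes. Stmn1, for a protein that destabilises microtubules, had the highest level per kilobase of the 48 genes in all 4 groups. It stood at 93.6 CPM in cKO iNK, 154 CPM in control iNK, 22.8 CPM in cKO iILC1 and 24 CPM in control iILC1. Cenpf and Anln were among the lowest over all libraries, at 2.46 and 3.21 CPM.

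**Figure D2:**
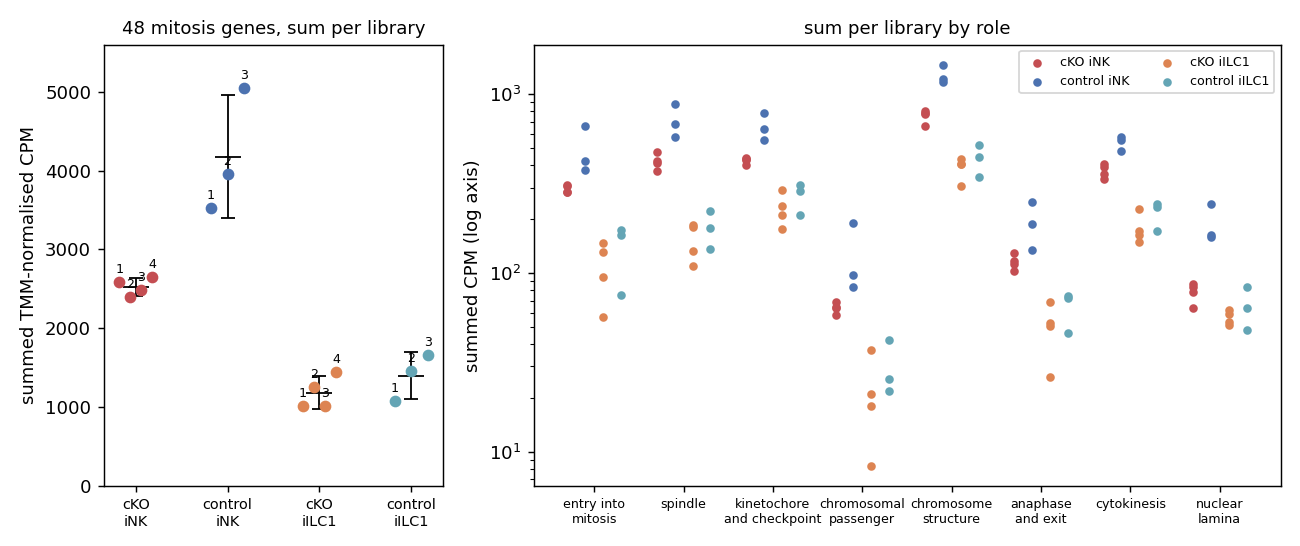
Summed TMM-normalised CPM of the 48 genes per library (left, linear axis from 0, points numbered by replicate, line and bar: mean and SD) and by role (right, log axis, 1 point per library). The 4 cKO iNK libraries lie between 2391 and 2648 CPM, below the 3 control iNK libraries (3530 to 5051 CPM), and the iILC1 groups overlap between 1011 and 1663 CPM.

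**Figure D3:**
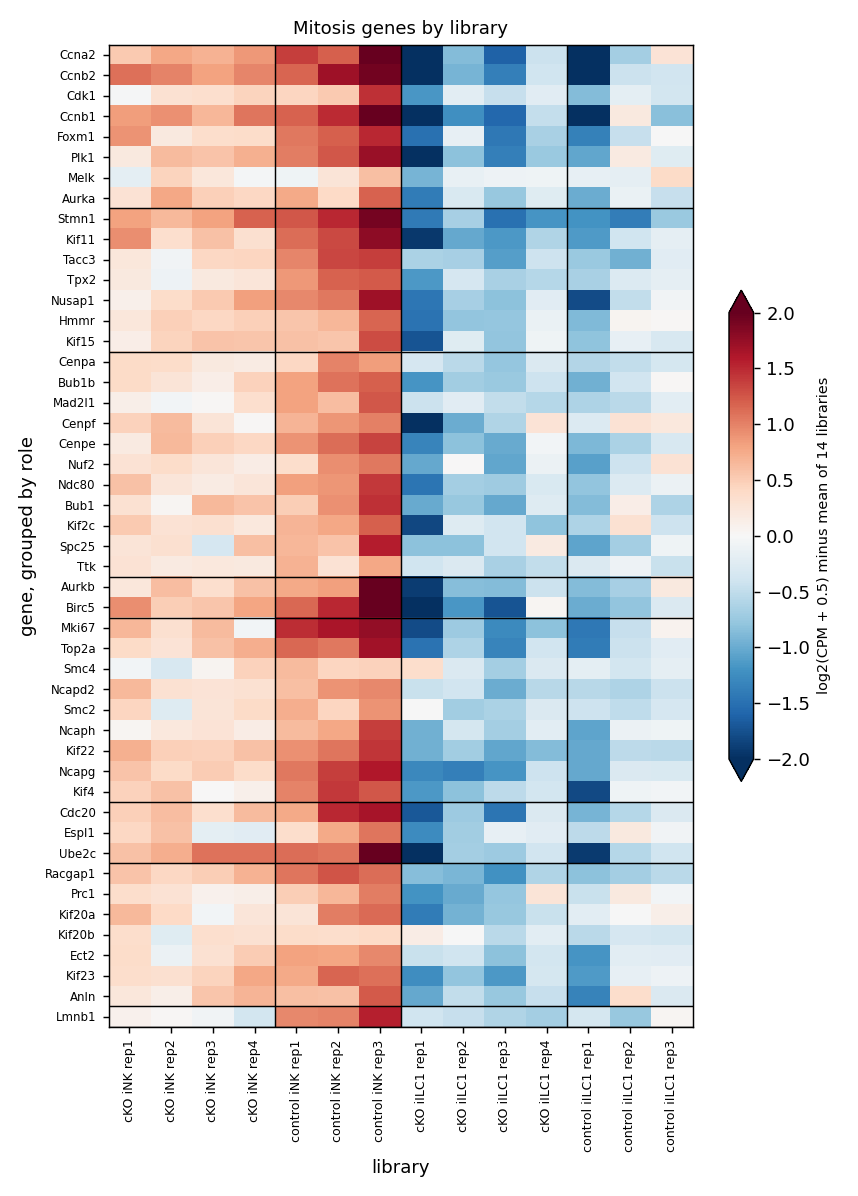
Level of each of the 48 genes (rows, grouped by role) in each of the 14 libraries (columns), as log2(CPM + 0.5) minus the gene's mean over the 14 libraries, with colours ending at −2 and 2. Control iNK libraries are the reddest, cKO iNK libraries lie between, and iILC1 libraries of both genotypes are mostly blue, with cKO iILC1 replicate 1 the lowest of its group for 32 genes.

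Comparison of cKO with control iNK cells asked how mitotic transcripts differed in mice designed to lose Il15 in the blood lineages. Lmnb1, Mki67, Tacc3 and Tpx2 fell, to 0.413, 0.432, 0.504 and 0.511 times the control level. All 48 genes had estimates below 0, with a median log2 fold change of −0.68, where all genes tested had a median of 0.06. EdgeR's quasi-likelihood test with Benjamini-Hochberg adjustment over 26990 genes called these 4 lower (adjusted p under 0.05) and none higher, and 34 of the 48 had an unadjusted p below 0.05, as had 2125 of the 26990 genes. Over all genes, 0.252% were called lower. The cKO and control libraries did not overlap, with cKO lower, in 33 of the 48 genes, against 4.75% of all genes tested. None of the 48 was without overlap in the other direction.

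The nuclear lamina gene had the smallest p. Lmnb1 (ENSMUSG00000024590, chromosome 18, 56707813 to 56753424, plus strand, mm10) encodes lamin B1, part of the protein mesh that is taken apart when the nuclear envelope breaks down. It had 86.7, 83.1, 77.9 and 63.5 CPM in cKO, against 160, 163 and 242 CPM in control iNK libraries. The groups did not overlap, and even the highest cKO library stayed well below the lowest control library. Its log2 fold change was −1.28 (SE 0.214, adjusted p = 0.00158). This call held without each iNK library in turn, with adjusted p of 0.0032 to 0.0322.

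Spindle genes held another 2 of the 4 calls. Tacc3 (chromosome 5, 33658128 to 33678995, plus strand) encodes a protein that crosslinks spindle microtubules, and had 44.1, 35.9, 50.4 and 50.7 CPM in cKO, against 74.7, 95.9 and 99.2 CPM in control iNK libraries. Of its exon bases, 8.14% lie in Tmem129 on the opposite strand. Tpx2 (chromosome 2, 152847964 to 152895321, plus strand), the activator of Aurora A and nucleator of spindle microtubules, had 37.3, 30, 37.2 and 38.2 CPM in cKO, against 59.2, 74 and 76.1 CPM in control iNK libraries. Neither gene's groups overlapped. The log2 fold changes were −0.99 (SE 0.218, adjusted p = 0.031) for Tacc3 and −0.97 (SE 0.214, adjusted p = 0.031) for Tpx2. Stmn1 had 171, 154, 171 and 223 CPM in cKO, against 234, 279 and 372 CPM in control iNK libraries, and Kif11, the motor that pushes spindle poles apart, had 76.6, 50.6, 60.2 and 50 CPM in cKO, against 87.8, 101 and 139 CPM in control iNK libraries. Both were without overlap, with log2 fold changes of −0.71 (SE 0.231, adjusted p = 0.279) and −0.88 (SE 0.257, adjusted p = 0.195), and did not pass. The other 3 spindle genes, Kif15, Hmmr and Nusap1, had estimates of −0.43, −0.43 and −0.80.

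Chromosome structure genes had a median of −0.80 over 9 genes, of which 1 was called. Mki67 (chromosome 7, 135689788 to 135716379, minus strand) encodes Ki-67, which coats mitotic chromosomes and keeps them apart. It had 165, 130, 162 and 99.9 CPM in cKO, against 292, 323 and 353 CPM in control iNK libraries, with all control values close together and cKO replicate 4 the lowest of all. The log2 fold change was −1.21 (SE 0.273, adjusted p = 0.0354). Top2a, the topoisomerase that untangles DNA strands, had 142, 132, 164 and 180 CPM in cKO, against 241, 225 and 348 CPM in control iNK libraries, without overlap, and its estimate was −0.81 (SE 0.265, adjusted p = 0.295). Smc4, the ATPase subunit of both condensins, had 122, 101, 131 and 174 CPM in cKO, against 196, 170 and 175 CPM in control iNK libraries. Its groups overlapped through cKO replicate 4, and the estimate was −0.45 (SE 0.227, adjusted p = 0.642). Among the other 6 genes, estimates ran from −0.94 in Kif4, a chromosome-bound motor, to −0.45 in Ncapd2, a condensin I subunit.

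Calls of Tacc3, Tpx2 and Mki67 were lost in fits with 1 iNK library fewer, while their estimates stayed similar. Mki67 lost its call without any of the 7 iNK libraries (adjusted p of 0.0649 to 0.18), and Tacc3 and Tpx2 lost theirs without any but control iNK replicate 1 (0.052 to 0.15 and 0.0776 to 0.177). Over all alternatives run, the log2 fold change ran from −1.38 to −1.04 for Mki67, from −1.11 to −0.88 for Tacc3 and from −1.07 to −0.89 for Tpx2. Lmnb1 was then the 1 gene called without control iNK replicate 2 or 3 or without any cKO iNK library, and the median of the 48 genes was −0.47 without control iNK replicate 3. Other fits called more of the 48 genes and also more of all genes tested, of which edgeR here called 110 in either direction. DESeq2 called 11 of the 48 and 294 of all, the iNK libraries fitted alone 12 and 220, and the receptor sum as a covariate 22 and 356. Without cKO iILC1 replicate 1, which enters only through the shared spread and scaling, 7 and 230 were called, and without it and control iNK replicate 1, 9 and 164.

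Among 8 genes of mitotic entry none passed, and their median was −0.70. Ccna2 encodes cyclin A2, which acts from S phase into early mitosis, and had 48, 56.7, 53.8 and 61 CPM in cKO, against 87.3, 76.1 and 172 CPM in control iNK libraries. Ccnb2, a B-type cyclin, had 69.7, 64.6, 56.9 and 64 CPM in cKO, against 72.6, 105 and 124 CPM in control iNK libraries, and Cdk1, the kinase that both activate, had 34.3, 43.4, 44.3 and 47.9 CPM in cKO, against 47.3, 50.6 and 96.8 CPM in control iNK libraries. In Ccna2 and Ccnb2 the groups did not overlap, while in Cdk1 the highest cKO library passed the lowest control library. Control replicate 3 was the highest library for all 3 genes. Ccna2 shares 12.49% of its exon bases with Exosc9 on the opposite strand. Their log2 fold changes were −1.03 (SE 0.364, adjusted p = 0.392), −0.66 (SE 0.346, adjusted p = 0.673) and −0.61 (SE 0.256, adjusted p = 0.527). Melk, a kinase of dividing cells, had the estimate closest to 0 of all 48 genes, with 17, 26.6, 22.9 and 18.9 CPM in cKO, against 18.4, 23.4 and 29.9 CPM in control iNK libraries. The Melk groups overlapped almost fully (log2 fold change −0.16, SE 0.261, adjusted p = 0.917).

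Kinetochore and checkpoint genes numbered 11, with a median of −0.60 and none called. Bub1b, which encodes the checkpoint protein BUBR1, had 70.5, 64.2, 59.3 and 74.6 CPM in cKO, against 94.6, 115 and 124 CPM in control iNK libraries. Mad2l1, another inhibitor of the anaphase-promoting complex, had 43.1, 38.3, 40.2 and 50.3 CPM in cKO, against 70.1, 61.1 and 95 CPM in control iNK libraries. Cenpa, the histone H3 variant that marks centromeres, had 76.5, 75.4, 67.2 and 65.5 CPM in cKO, against 77.8, 117 and 105 CPM in control iNK libraries. In all 3 genes the cKO libraries lay below the control libraries. The log2 fold changes were −0.73 (SE 0.22, adjusted p = 0.217), −0.81 (SE 0.205, adjusted p = 0.082) and −0.49 (SE 0.198, adjusted p = 0.491). The other 8 genes had estimates from −0.77 in Spc25, of the NDC80 complex, to −0.39 in Ttk, the kinase that starts checkpoint signalling.

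The chromosomal passenger complex corrects faulty attachments and was represented by its kinase Aurkb and by Birc5 (survivin). Aurkb had 26.8, 35.6, 28.9 and 34.5 CPM in cKO, against 39, 40.9 and 95.6 CPM in control iNK libraries, and Birc5 had 37.8, 27.9, 29.2 and 34.2 CPM in cKO, against 44.2, 57 and 94 CPM in control iNK libraries. Neither overlapped, but the control group was drawn up by replicate 3 in both. Neither passed, with log2 fold changes of −0.90 (SE 0.306, adjusted p = 0.347) and −1.01 (SE 0.359, adjusted p = 0.392).

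Genes of anaphase and mitotic exit did not pass either. Cdc20, the activator of the anaphase-promoting complex, had 46, 51, 41.5 and 51.4 CPM in cKO, against 56.2, 94.6 and 104 CPM in control iNK libraries. Ube2c, an E2 enzyme of that complex, had 20.6, 22.7, 29.1 and 29.3 CPM in cKO, against 30, 29 and 66.2 CPM in control iNK libraries. Espl1, for separase, which cuts cohesin, had 49.9, 56.2, 32.6 and 31.9 CPM in cKO, against 47.9, 63.7 and 79.2 CPM in control iNK libraries. Only Cdc20 of these 3 was without overlap, and the estimates were −0.84 (SE 0.266, adjusted p = 0.269), −0.71 (SE 0.392, adjusted p = 0.687) and −0.58 (SE 0.262, adjusted p = 0.59). Ube2c shares 22.77% of its exon bases with Tnnc2 on the opposite strand, and the kits used do not keep the strand, so reads in the shared part cannot be told apart.

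Cytokinesis genes had a median of −0.53 over 7 genes, with none called. Racgap1, part of the centralspindlin complex, had 152, 136, 144 and 167 CPM in cKO, against 215, 246 and 222 CPM in control iNK libraries, without overlap (log2 fold change −0.61, SE 0.194, adjusted p = 0.272). Prc1, which bundles microtubules of the central spindle, had 63.8, 61.1, 52.8 and 54.3 CPM in cKO, against 70, 79.4 and 102 CPM in control iNK libraries, also without overlap (log2 fold change −0.53, SE 0.262, adjusted p = 0.638). Kif20a, a motor of the central spindle, had 46.8, 39.2, 28.7 and 35.3 CPM in cKO, against 35.5, 61.2 and 65.4 CPM in control iNK libraries, with overlap (log2 fold change −0.53, SE 0.242, adjusted p = 0.599). Of the exon bases of Kif20a, 33.17% lie in Cdc23 on the opposite strand. Kif20b, a related motor, had 40.5, 26.8, 40 and 39.2 CPM in cKO, against 41.2, 40.8 and 41.9 CPM in control iNK libraries, and differed little (log2 fold change −0.17, SE 0.213, adjusted p = 0.887).

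**Figure D4:**
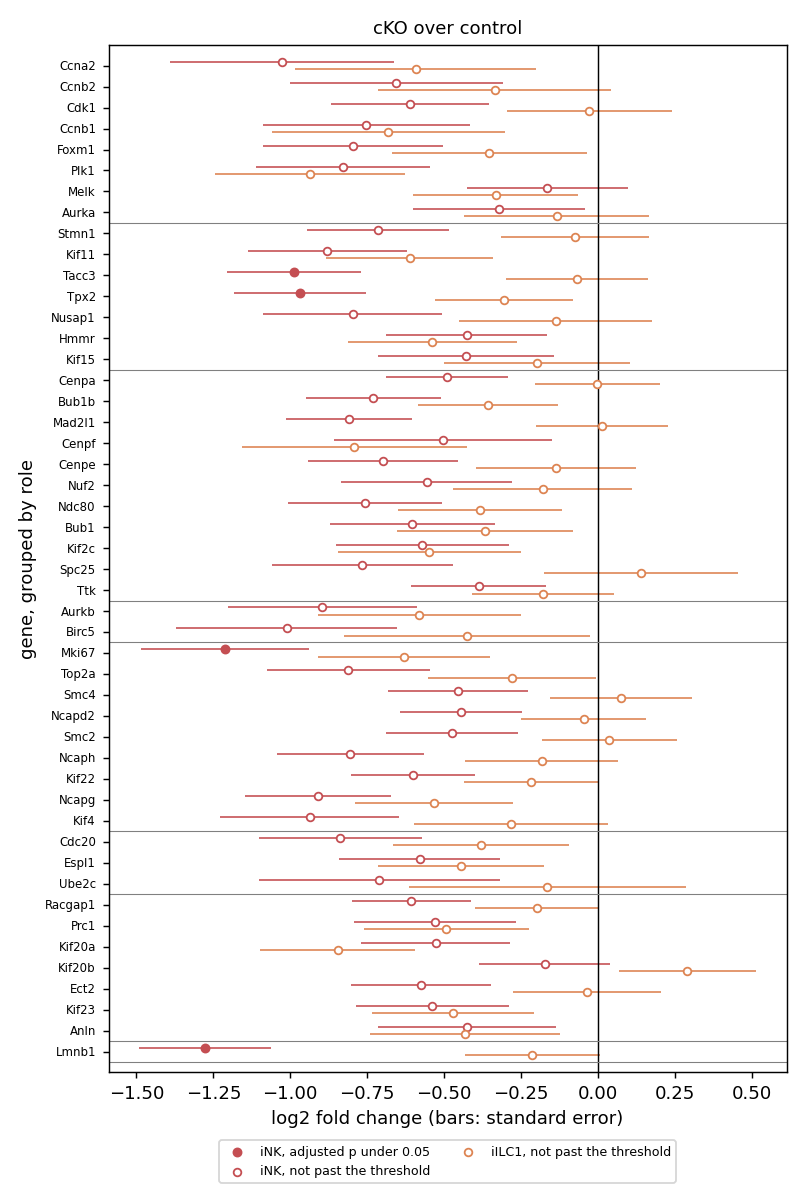
Log2 fold change of cKO over control for each of the 48 genes (points) with its standard error (bars), in iNK (red) and iILC1 (orange), from 1 edgeR fit of 14 libraries. Filled points pass an adjusted p of 0.05. All iNK estimates lie left of 0, from −1.28 to −0.16, and only Lmnb1, Tacc3, Tpx2 and Mki67 are filled, while iILC1 estimates run from −0.94 to 0.29 with none filled.

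Other genes of the same process were taken from a list of 114 further mitosis genes. This list and those below were also chosen with earlier results of these data known. Of these, 2 fell in cKO iNK and none rose, with a median of −0.34 and 99 estimates below 0. The 2 were Ncapg2, a condensin II subunit, at 51.73 ± 5.76 CPM (SD, n = 4) in cKO and 102.9 ± 17.1 CPM (SD, n = 3) in control (log2 fold change −0.99, adjusted p = 0.0131), and Cep55, which recruits the abscission machinery, at 11.99 ± 0.98 and 29.89 ± 7.94 CPM (log2 fold change −1.31, adjusted p = 0.0259). Of 54 DNA replication and S phase entry genes, 7 fell and none rose, with a median of −0.66. Of 12 genes of the DREAM and MYBL2 complexes, and of 15 tested cell cycle inhibitors and quiescence genes, none passed, with medians of −0.22 and 0.08.

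Some markers of other cells differed by genotype in iNK. Of 12 B-cell genes, 7 rose in cKO iNK, and their summed level was 731.2 to 1143 CPM in cKO against 440 to 643.1 CPM in control, with no gene of the list at 0 in all libraries. The sums of 10 stem and progenitor genes (217.4 to 258.1 CPM in cKO, 116.8 to 187.3 CPM in control) and of 11 tested stroma and endothelium genes (251.7 to 314.1 CPM in cKO, 198.8 to 234.9 CPM in control) did not overlap either, although no gene of these lists passed. Kit made up most of the stem and progenitor sums, averaging 166 CPM in cKO and 90.7 CPM in control. Of the 10 stem and progenitor estimates, 9 were above 0. The sums of the other lists overlapped. Of 14 tested erythroid genes, 2 (Hbb-bs and Hbb-bt) rose, with sums of 338.2 to 955.2 CPM in cKO and 427.7 to 479 CPM in control. The largest part of these sums was Car2, which went the other way, averaging 231 CPM in cKO and 362 CPM in control. Hba-a1, Hbb-bs and Hbb-bt averaged 127, 144 and 26.7 CPM in cKO, against 6.36, 6.45 and 0.677 CPM in control. Of the 14 erythroid estimates, 12 were above 0, with a median of 1.25. Early B-lineage genes summed to 181.5 to 239.7 CPM in cKO and 139.1 to 189.1 CPM in control, and 1 of 9 tested rose, Il7r. Of 12 tested granulocyte progenitor genes none passed, with sums of 24.87 to 442.9 CPM in cKO and 91.65 to 307.5 CPM in control. The part of these cells in the mitotic levels was not tested.

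In iILC1 cells, no mitosis gene passed the test between cKO and control mice. Estimates were below 0 in 43 of 48 genes, with a median of −0.29, against 0.02 over all genes tested, and 6 genes had an unadjusted p below 0.05. The median was −0.50 without control iILC1 replicate 1 and −0.11 without control iILC1 replicate 3. Over all genes, edgeR called 0.0259% lower and gave 1221 an unadjusted p below 0.05, and DESeq2 called none of the 48 either. The libraries were without overlap, with cKO lower, in 1 of the 48 genes, against 2.82% of all genes. Kif20a was that gene.

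Kif20a had 11, 15.2, 17.3 and 21.6 CPM in cKO, against 25.7, 29.4 and 32.4 CPM in control iILC1 libraries, and its estimate was −0.85 (SE 0.253, adjusted p = 0.624) with an unadjusted p of 0.00231. Plk1, the kinase that drives mitotic entry and spindle assembly, had the most negative estimate, at 4, 10.2, 6.84 and 10.8 CPM in cKO, against 8.77, 20.9 and 15.6 CPM in control iILC1 libraries (log2 fold change −0.94, SE 0.308, adjusted p = 0.848). Control replicate 1 lay among the cKO values for Plk1. At the other end stood Kif20b, with 35.1, 31.6, 21.8 and 27.5 CPM in cKO, against 21.6, 25 and 24.4 CPM in control iILC1 libraries (log2 fold change 0.29, SE 0.222, adjusted p = 0.979). The 4 genes that passed in iNK gave no call here. Lmnb1 had 62, 58.9, 53.4 and 51 CPM in cKO, against 64.1, 48.1 and 83.7 CPM in control iILC1 libraries and Tacc3 had 24, 23.6, 17.3 and 28.2 CPM in cKO, against 22.2, 19.1 and 31.9 CPM in control iILC1 libraries, both with overlap and estimates of −0.21 (SE 0.219, adjusted p = 0.979) and −0.07 (SE 0.231, adjusted p = 0.986). Mki67 had 29.7, 63.1, 42.9 and 58.7 CPM in cKO, against 38.6, 75.9 and 110 CPM in control iILC1 libraries (log2 fold change −0.63, SE 0.279, adjusted p = 0.979), and Tpx2 had 14.3, 25.5, 20.5 and 21.7 CPM in cKO, against 20.5, 26.8 and 28.4 CPM in control iILC1 libraries (log2 fold change −0.31, SE 0.225, adjusted p = 0.979).

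Among entry genes, Ccna2 had 7.02, 18, 10.5 and 24.4 CPM in cKO, against 6.14, 20.5 and 39.9 CPM in control iILC1 libraries, Ccnb2 had 4.72, 16.7, 12.2 and 24.3 CPM in cKO, against 5.26, 23.7 and 24.7 CPM in control iILC1 libraries, and Cdk1 had 15.3, 30, 25.3 and 29.9 CPM in cKO, against 19, 30.4 and 26.9 CPM in control iILC1 libraries. Replicate 1 of either genotype was the lowest of its group for all 3, and the genotypes overlapped in all 3. Estimates were −0.59 (SE 0.391, adjusted p = 0.979), −0.34 (SE 0.378, adjusted p = 0.979) and −0.03 (SE 0.268, adjusted p = 0.997). Top2a and Smc4 of the chromosome group had 38.9, 70.9, 43.1 and 83.1 CPM in cKO, against 40.7, 80.5 and 92.9 CPM in control iILC1 libraries, and 162, 104, 78.6 and 104 CPM in cKO, against 110, 97.8 and 112 CPM in control iILC1 libraries, with estimates of −0.28 (SE 0.272, adjusted p = 0.979) and 0.08 (SE 0.231, adjusted p = 0.985). Smc4 was highest in cKO iILC1 replicate 1, the library that was lowest for 32 of the 48 genes. Racgap1 had 56.8, 54, 44.2 and 67.6 CPM in cKO, against 57.9, 63.6 and 70.2 CPM in control iILC1 libraries, and Prc1 had 21.4, 24.5, 28.9 and 59.9 CPM in cKO, against 36.3, 57.4 and 48.2 CPM in control iILC1 libraries (log2 fold change −0.20, SE 0.199, adjusted p = 0.979; log2 fold change −0.49, SE 0.268, adjusted p = 0.979).

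Other named iILC1 levels overlapped between genotypes as well. Stmn1 had 36.6, 61.5, 34.4 and 43.1 CPM in cKO, against 42.4, 37.4 and 58.6 CPM in control iILC1 libraries, and Kif11 had 10.2, 19.5, 17.8 and 26.3 CPM in cKO, against 18.1, 30.4 and 35.4 CPM in control iILC1 libraries. Bub1b had 23.5, 32.9, 32.1 and 40.4 CPM in cKO, against 27.5, 41.3 and 54.4 CPM in control iILC1 libraries, and Mad2l1 had 29.3, 33.7, 28 and 26.7 CPM in cKO, against 25.7, 27.2 and 34.3 CPM in control iILC1 libraries. The checkpoint genes differed less between genotypes than between their own libraries. Estimates of the 4 genes were −0.07 (SE 0.241, adjusted p = 0.985), −0.61 (SE 0.273, adjusted p = 0.979), −0.36 (SE 0.228, adjusted p = 0.979) and 0.01 (SE 0.214, adjusted p = 0.998). Cenpa had 46.3, 40, 33.9 and 47.8 CPM in cKO, against 38.9, 41.5 and 45.6 CPM in control iILC1 libraries, with an estimate of −0.00 (SE 0.204, adjusted p = 0.999). Aurkb had 5.81, 12.5, 12.4 and 16.9 CPM in cKO, against 12.3, 14.3 and 26.2 CPM in control iILC1 libraries, Birc5 had 2.54, 8.45, 5.57 and 20.1 CPM in cKO, against 9.65, 11.1 and 15.9 CPM in control iILC1 libraries, and Cdc20 had 9.81, 19.6, 11.6 and 26.8 CPM in cKO, against 17, 22.1 and 26.9 CPM in control iILC1 libraries. All 3 were lowest in cKO replicate 1, and the estimates were −0.58 (SE 0.33, adjusted p = 0.979), −0.43 (SE 0.4, adjusted p = 0.979) and −0.38 (SE 0.285, adjusted p = 0.979). Ube2c had 0.969, 8.2, 7.95 and 10.2 CPM in cKO, against 3.22, 8.94 and 10.1 CPM in control iILC1 libraries (log2 fold change −0.16, SE 0.449, adjusted p = 0.985), and its smallest raw count was 8. Espl1 had 15.3, 22.8, 33.2 and 31.8 CPM in cKO, against 26, 42.9 and 35.5 CPM in control iILC1 libraries (log2 fold change −0.44, SE 0.27, adjusted p = 0.979).

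Of the 114 further mitosis genes and the 54 replication genes none passed in iILC1, with medians of −0.06 and −0.08. Sums of 2 lists of other cells did not overlap between genotypes in iILC1. Early B-lineage genes summed to 685.4 to 907.5 CPM in cKO and 482.6 to 643.7 CPM in control. Stem and progenitor genes summed to 311.6 to 387.7 CPM in cKO and 213.4 to 281.7 CPM in control, with no gene of either list called. Most of the stem and progenitor sum was Kit, which averaged 239 CPM in cKO and 149 CPM in control. Of the 10 estimates of that list, 6 were above 0 and 4 below. Most of the early B-lineage sum was Il7r, a gene of the iILC1 gate, which averaged 646 CPM in cKO and 408 CPM in control. Of 9 tested early B-lineage genes, 5 had estimates above 0 and 4 below. Among 13 tested T-cell genes, 1 (Trac) fell, and the list's sums overlapped, at 565.4 to 1110 CPM in cKO and 638.2 to 1069 CPM in control. Granulocyte progenitor genes summed to 37.72 to 322.1 CPM in cKO and 32.76 to 57.84 CPM in control, none of 12 tested passing. Of 12 B-cell genes none passed, with sums of 455.7 to 715.1 CPM in cKO and 393.7 to 508.3 CPM in control. The part of any of these in the mitotic levels was not tested.

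Between the cell types, most mitosis genes were lower in iILC1 than in iNK, in either genotype. In cKO mice the median log2 fold change was −1.10, against 0.01 over all genes tested. EdgeR called 34 of 48 lower in iILC1 and none higher, where 1.68% of all genes were called lower, and the libraries of 40 genes were without overlap, iILC1 lower, against 3.08% of all genes. Stmn1 averaged 43.9 ± 12.3 CPM in cKO iILC1 and 179.8 ± 29.8 CPM in cKO iNK (SD, n = 4 each; log2 fold change −2.03, SE 0.225, adjusted p = 2.27e-07). Ccnb1, the main mitotic cyclin, had the most negative estimate, with 3.51, 7.96, 6.2 and 13.7 CPM in cKO iILC1, against 35, 37, 30.9 and 41.2 CPM in cKO iNK libraries (log2 fold change −2.20, SE 0.342, adjusted p = 6.7e-05). Kif23, the motor subunit of centralspindlin, had 10.2, 14.2, 11 and 19.4 CPM in cKO iILC1, against 31.8, 31.3, 34.2 and 43.1 CPM in cKO iNK libraries (log2 fold change −1.36, SE 0.24, adjusted p = 0.000396). In both genes the cell types were well apart. Per kilobase, their cKO iILC1 means (1.86 and 4.00 CPM) lay below the 95th percentile of the receptor genes in that group (4.96 CPM). Plk1, Ccnb2, Kif11, Kif22, Ncapg, Racgap1, Mki67, Cdc20 and Top2a were also called, with estimates from −2.14 (Ccnb2) to −1.39 (Top2a).

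In control mice the median log2 fold change of iILC1 over iNK was −1.44, against 0.16 over all genes tested. EdgeR called 41 of 48 lower and none higher, where 3.00% of all genes were called lower. The control libraries of both cell types were without overlap, iILC1 lower, in 47 genes, against 13.0% of all genes. Melk was the exception, with the estimate nearest to 0 (log2 fold change −0.25, SE 0.284, adjusted p = 0.615). Every role had called members, including all 7 spindle genes, both passenger genes, 10 of 11 kinetochore genes and 8 of 9 chromosome genes. The 7 uncalled genes were Melk, Cenpf, Smc4, Espl1, Kif20a, Kif20b and Prc1, with estimates from −0.88 to −0.25.

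Stmn1 showed the largest difference, averaging 46.1 ± 11.1 CPM in control iILC1 and 295.2 ± 70.7 CPM in control iNK (SD, n = 3 each), or −2.67 (SE 0.268, adjusted p = 1.22e-07) as the log2 ratio. Racgap1 averaged 63.9 ± 6.13 CPM in control iILC1 and 227.7 ± 16.1 CPM in control iNK (log2 fold change −1.83, SE 0.217, adjusted p = 2.55e-06). Kif22, a motor that moves chromosome arms, had 15.2, 21.7 and 21.4 CPM in control iILC1, against 60, 66.8 and 85.4 CPM in control iNK libraries (log2 fold change −1.85, SE 0.231, adjusted p = 5.69e-06). These libraries lay far apart compared with their spread. Ncapg, a condensin I subunit that shares 13.36% of its exon bases with Lcorl on the opposite strand, had 12, 20.3 and 20.2 CPM in control iILC1, against 52.6, 66 and 76.6 CPM in control iNK libraries (log2 fold change −1.88, SE 0.27, adjusted p = 4.74e-05). Ncapd2, of the same complex, had 62, 59.4 and 68.3 CPM in control iILC1, against 140, 172 and 180 CPM in control iNK libraries (log2 fold change −1.37, SE 0.22, adjusted p = 0.000255). Cenpe, the kinetochore motor, had 16.1, 19.3 and 24.2 CPM in control iILC1, against 56.8, 66.1 and 78.2 CPM in control iNK libraries (log2 fold change −1.75, SE 0.277, adjusted p = 0.000216). The cyclins and Ube2c had estimates of −2.27 (Ccnb1) to −2.46 (Ccnb2), and Tacc3, Mki67, Kif11, Top2a, Cdc20 and Lmnb1 had −1.88, −2.10, −1.95, −1.92, −1.94 and −1.53, all called.

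Calls were shared by 33 genes between the 2 genotypes. Of the others, 1 was called in cKO mice alone (Kif20a), 8 in control mice alone (Cdk1, Ttk, Mad2l1, Nuf2, Spc25, Ncaph, Smc2 and Lmnb1) and 6 in neither. A call in one genotype alone was not a tested difference. Lmnb1 averaged 56.3 ± 5.03 CPM in cKO iILC1 and 77.8 ± 10.2 CPM in cKO iNK (SD, n = 4 each), with an estimate of −0.46 (SE 0.201, adjusted p = 0.371), against −1.53 (SE 0.237, adjusted p = 0.000153) in control mice. Smc4 had the estimate nearest to 0 in cKO mice, with 162, 104, 78.6 and 104 CPM in cKO iILC1, against 122, 101, 131 and 174 CPM in cKO iNK libraries (log2 fold change −0.23, SE 0.212, adjusted p = 0.902).

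**Figure D5:**
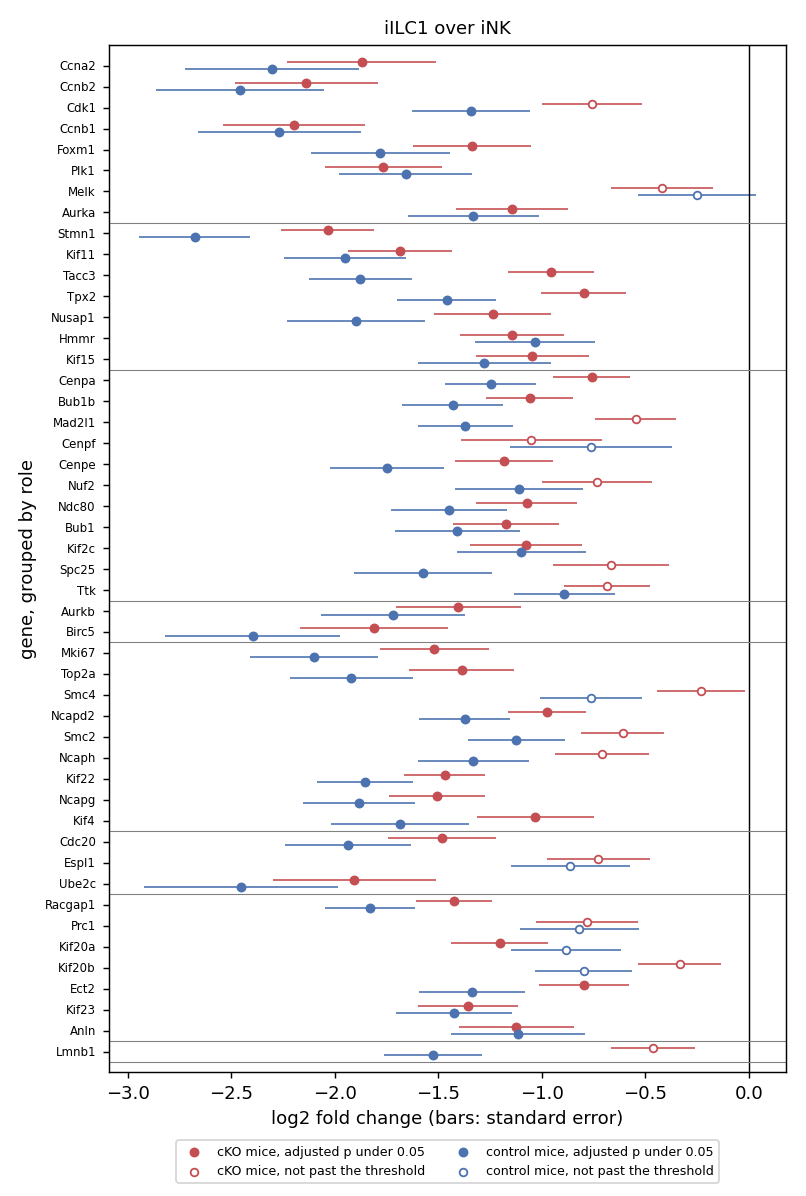
Log2 fold change of iILC1 over iNK for each of the 48 genes (points) with its standard error (bars), in cKO mice (red) and control mice (blue). Filled points pass an adjusted p of 0.05, 34 genes in cKO and 41 in control mice, and all estimates lie left of 0.

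Of the 114 further mitosis genes, 24 were lower in iILC1 of cKO mice and 39 in iILC1 of control mice, with medians of −0.43 and −0.72, and none was higher. Of the 54 replication genes, 7 were lower and 1 (Ccnd3) higher in cKO mice, and 27 were lower in control mice, with medians of −0.38 and −0.94. Of 13 tested T-cell genes, 4 were higher in iILC1 of cKO mice and 6 in iILC1 of control mice, and of 12 B-cell genes 7 were lower in iILC1 of cKO mice and none passed in control mice. The sums of 12 monocyte and dendritic cell genes were lower in iILC1 without overlap, at 703.9 to 1173 CPM against 1451 to 2031 CPM in iNK of cKO mice, and 823.1 to 1120 CPM against 1369 to 2516 CPM in iNK of control mice. Of that list Ccr2 and Itgax were called lower in both genotypes, and Bst2 (cKO mice) and Csf1r (control mice) higher. Ccr2 and Itgax made up most of the iNK sums, averaging 1260 and 401 of 1830 CPM in cKO and 1380 and 418 of 2013 CPM in control. In iILC1 they averaged 475 and 135 CPM in cKO, and 583 and 194 CPM in control mice. Of the 12 estimates for this list, 7 were above 0 in cKO mice and 8 in control mice. B-cell sums in cKO mice and granulocyte progenitor sums in control mice (32.76 to 57.84 CPM in iILC1, 91.65 to 307.5 CPM in iNK) were also lower in iILC1 without overlap. Early B-lineage and stem and progenitor sums were higher in iILC1 without overlap in both genotypes, and stroma and endothelium sums in control mice. Most of the stem and progenitor sum was Kit. It averaged 239 of 353.3 CPM in cKO and 149 of 239.3 CPM in control iILC1, against 166 of 243.4 and 90.7 of 153.4 CPM in iNK. Of that list only Ly6a was called higher, in both genotypes. Of its 10 estimates, 6 were above 0 and 4 below in cKO mice, and 9 were above 0 in control mice. Most of the early B-lineage sum in iILC1 was Il7r, a gene of the iILC1 gate. It averaged 646 of 813.8 CPM in cKO and 408 of 555.7 CPM in control iILC1, against 22.3 and 8.37 CPM in iNK. Of 9 tested genes of that list, 6 had estimates below 0 in cKO mice and 3 in control mice. The part of other cells in the mitotic differences was not tested.

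The difference of the genotype effect between cell types was tested as an interaction, in which the iNK effect was subtracted from that in iILC1. None of the 48 genes passed in edgeR, and 5 had an unadjusted p below 0.05, as had 1905 of the 26990 genes. Over all genes, 0.0778% were called in either direction. Estimates were above 0 in 42 genes, with a median of 0.40 (−0.03 over all genes tested). Lmnb1 had the largest, 1.06 (SE 0.308, unadjusted p = 0.00178, adjusted p = 0.441), and Kif20a the lowest, −0.32 (SE 0.352, adjusted p = 0.804).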

How the data were processed

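RNA from sorted cells was made into full-length cDNA and tagged libraries that do not keep the strand. Per the file headers, the deposited table gives raw read counts per Ensembl gene, not normalized. The submitters' processing notes name mm10, HISAT2 2.1.0, Trimmomatic 0.33, Subread 1.6.5 and featureCounts. Annotation, strand setting and treatment of multiply placed reads are not given in the sources used here, so counts of overlapping genes and of genes with named copies (Ccnb1, Ccnb2, Kif22 and Kif4) are uncertain. Of 46078 identifiers, 45143 (97.97%) matched a symbol.

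Genes were filtered with filterByExpr (minimum count 10, minimum total 15), scaled by TMM and tested with edgeR 4.0.16 (R 4.3.3) by the quasi-likelihood F test, two-sided, in 1 fit of 14 libraries with a mean for each of 4 groups and Benjamini-Hochberg adjustment over 26990 genes. Standard errors (SE) came from the F statistics. The common biological coefficient of variation was 30%. Members and lists were chosen with earlier results of these data known. Named genes were those called, the 3 with the highest level in each role, those with the lowest and highest estimates and, between cell types, up to 12 by p. Replicates differed by more than sampling noise (4.6 to 24.9 chi-square units for each degree of freedom). Precision rests on this spread between libraries as well as on total counts of 3512796 to 12572326 per library. The table has no column outside the 14 samples. Alternatives were DESeq2 1.42.0, other scaling, filters, fits and left-out libraries. Il15 itself checks no label here, since gene counts do not resolve its floxed part. Tests were tried on simulated data.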

Additional observations from a re-analysis of the deposited data

Results flagged for a closer look

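In groups of 4 libraries, a single library was set apart when its gap to the nearest other exceeded the share of the group's range set by Dixon's 95% critical value. Of 98 groups examined (48 genes and their sum, in both cKO groups), 5 were set apart, and chance alone sets apart about 1 in 20. Tpx2 in cKO iNK replicate 2 had 30 CPM, while the others had 37.2 to 38.2 CPM. Ncapd2 in cKO iNK replicate 1 had 144 CPM, while the others had 111 to 114 CPM. Kif20b in cKO iNK replicate 2 had 26.8 CPM, against 39.2 to 40.5 CPM in the others. Melk in cKO iILC1 replicate 1 had 9.93 CPM, against 17.6 to 18.3 CPM, and that library was the lowest of its group for 32 of the 48 genes. Ncapg in cKO iILC1 replicate 4 had 18.6 CPM, against 9.43 to 10.8 CPM, and that library was the highest of its group for 32 genes.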

How the results depend on the processing

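Of 74 results for named genes, 49 kept their direction and their side of the threshold under every alternative run, and the medians of the 48 genes kept their sign in all 5 comparisons. In iNK, cKO against control, 4 of the 48 genes were called lower here (110 of all genes in either direction), 11 with DESeq2 (294), 12 with the compared groups fitted alone (220), 22 with background reads as a covariate (356) and 9 without control iNK replicate 1 and cKO iILC1 replicate 1 (164). Without single libraries the count ran from 1 to 7, with 7 without cKO iILC1 replicate 1 (230), and the median from −0.806 to −0.465. Counts for iILC1 genotype and the interaction stayed at 0 called genes. Between cell types, 28 to 44 genes were called in cKO mice and 34 to 46 in control mice, with a control median of −1.794 under the covariate. With the replicate block, 9 genes were called in iNK (175 of all). The labels do not say what a number shares, so the block was not used in the main fit. Same-numbered libraries correlated by −0.092 to 0.389, with 9 of 19 pairs above 0.1, and 17 of 38 library matches were best with the own number. Whether equal numbers mark something shared was not tested. A fit with a robust spread estimate, chosen after seeing the data, also called 4 genes in iNK.

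Some uncalled estimates changed sign, and not only the smallest. For iILC1 genotype without single libraries, the ranges were −1.003 to 0.139 for Ccna2, −0.18 to 0.142 for Cdk1, −0.475 to 0.194 for Ube2c, −0.105 to 0.088 for Cenpa, −0.079 to 0.157 for Mad2l1, −0.389 to 0.016 for Lmnb1, −0.161 to 0.212 for Smc4, −0.298 to 0.146 for Stmn1 and −0.218 to 0.185 for Tacc3. In iNK, Melk ran from −0.304 to 0.041 without single libraries. Elsewhere in iILC1, Cenpa became 0.022 with no filter on low counts, Smc4 −0.022 and Mad2l1 −0.062 with the 5 CPM filter, Mad2l1 −0.03 with the iILC1 groups alone, and Smc4 −0.007 with the block. Under the covariate, Smc4, Cdk1, Ube2c and Cenpa were −0.075, 0.139, 0.063 and 0.002. Without control iNK replicate 1 and cKO iILC1 replicate 1, Smc4, Cdk1, Ube2c and Stmn1 were −0.156, 0.151, 0.202 and 0.007, and Kif20a in the interaction was 0.06. The cause was not tested. Total counts were lowest in control iILC1, at 3512796 to 4933284.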
